A study of Mus musculus with 8 samples.

Results

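The collagen and laminin genes of mouse ESCs were followed through depletion of 3 members of the HIRA complex, a chaperone that deposits the histone variant H3.3. Members were chosen by symbol: every gene named as a collagen alpha chain or as a laminin alpha, beta or gamma chain, 55 of the 55418 genes counted. They comprised 19 basement membrane genes (11 laminin chains, 6 collagen IV chains and 2 multiplexins), 11 fibrillar collagen genes and 25 other collagen genes. RNA-seq covered 8 libraries of the feeder-free mouse ESC line E14 grown on gelatin with serum and LIF, 2 libraries for each of 4 groups.

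The 3 knockdown groups carried a pSuper-puro plasmid expressing an shRNA against Hira, Ubn1 or Ubn2, and the remaining group was the control, called wild type by its labels and a luciferase shRNA control by the study's methods. Per the labels, cells received 1000 ng of plasmid and, from 24 h, puromycin at 1 µg/ml for 3 days, and the strain was given as 12910la in every group. The cells were drug-selected after transfection, and no clone was described. Nothing in the labels placed the 2 libraries of a group in separate cultures, so the p-values measured the spread between these libraries, which may be technical.

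Laminins are cross-shaped trimers of an alpha, a beta and a gamma chain that polymerise at the cell surface, and collagen IV forms another network of the basement membrane, joined to the first by nidogens and perlecan. Cells of the early embryo secrete laminin, and in ESC aggregates the outer endoderm lays down a basement membrane on which the epiblast becomes polarised. Fibrillar collagens (types I, II, III, V, XI, XXIV and XXVII) build the fibres of connective tissue, cartilage and bone, and are made mainly by mesenchymal cells. The remaining collagens decorate fibrils (the FACIT group), form beaded filaments (type VI), hexagonal networks (types VIII and X) or anchoring fibrils (type VII), or span the plasma membrane.

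Total counts per library lay between 19710040 and 32706053, and members held between 0.144% and 0.173% of them. The 3-count floor, the smallest level that could be told from 0, lay between 0.0908 and 0.153 CPM, the counts of a gene scaled to library size, which covers counting error only. Each targeted gene was lower in its own depletion, with log2 fold changes of -3.22 for Hira, -1.03 for Ubn1 and -0.90 for Ubn2. The summed level of 10 ESC markers was 7093 and 7382 CPM in control and between 6116 and 6520 in the depleted libraries, so the labelled cell type had its defining transcripts. Of the 10, Dppa5a and Tdgf1 were called lower after Ubn2 depletion, and 0 were called after Hira or Ubn1 depletion. By edgeR's adjusted p alone, 5 passed after Hira and 2 after Ubn1 depletion. At an unadjusted p under 0.05, 5 were lower and 2 higher after Hira, and 4 lower and 1 higher after Ubn1 depletion. Among all genes tested 5.40%, 1.56% and 8.75% were called lower after Hira, Ubn1 and Ubn2 depletion, and 10.8%, 1.53% and 9.59% higher. The Ubn2-depleted libraries stood apart in 16 heart muscle markers, whose sum was 494 and 323 CPM there against 49.9 to 66.5 in the other 6, and results that move with these are given with their values. The 3 depletions were compared with the same control libraries, so they are not independent of each other.

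In control ESCs the transcripts of the group were dominated by basement membrane genes. Of the 8 members at 20 CPM or more, all were basement membrane genes: the laminin chains Lama1, Lama5, Lamb1, Lamb2 and Lamc1, the ubiquitous collagen IV chains Col4a1 and Col4a2, and Col18a1, the source of endostatin. Levels of different genes were compared per kilobase of exon, as means of the control libraries. On that scale Lamc1 led with 54.3 CPM per kb, followed by Col18a1 with 36.2, Lama5 with 34.0, Lamb1 with 10.1, Col4a1 with 7.72, Lamb2 with 7.01 and Lama1 with 6.43. The alpha chains thus stood with Lama5 above Lama1, the beta chains with Lamb1 above Lamb2, and the gamma chain Lamc1 above both. The highest non-basement-membrane member was Col9a2, a FACIT chain of cartilage collagen IX, with 6.26 CPM per kb, and the highest fibrillar gene was Col5a1 with 2.25.

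**Figure D1:**
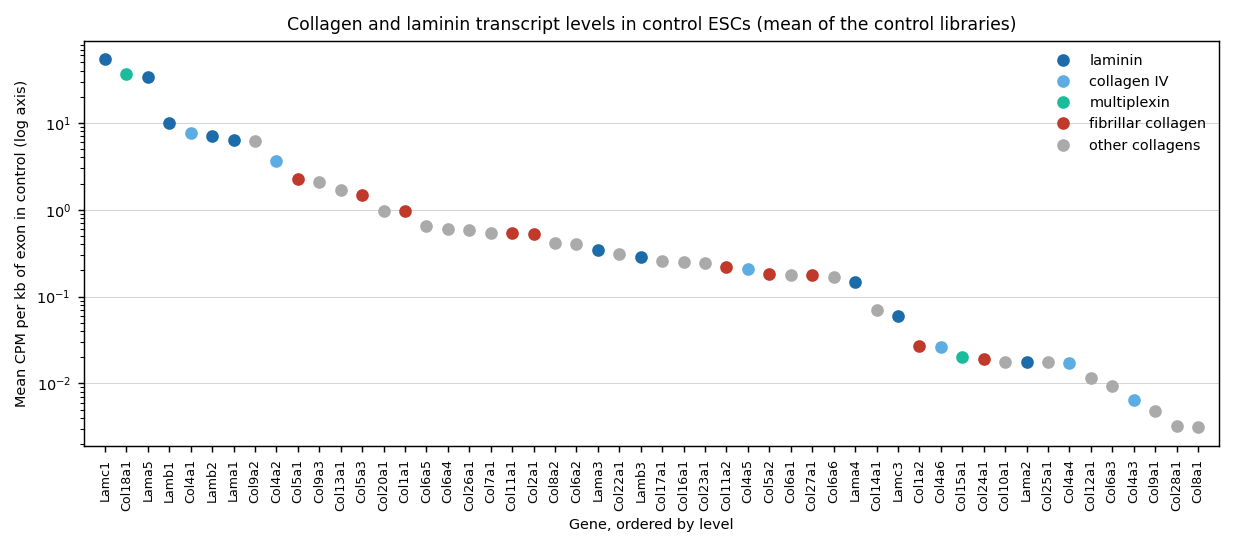
Mean CPM per kb of exon in the control libraries (log axis) for members with a count there, ordered by level and coloured by class. Lamc1, Col18a1 and Lama5 stand at 54.3, 36.2 and 34.0, and most fibrillar genes (red) lie near or below 1.

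Members that passed the filter on low counts in at least 1 comparison with control numbered 44, and 11 passed in none: Col4a3, Col4a6, Col15a1, Col24a1, Col9a1, Col12a1, Col19a1, Col6a3, Col8a1, Col10a1 and Col28a1. These 11 had at most 22 counts in any library, and Col19a1 had no count in any of the 8. Of the 44, 22 were called in at least 1 depletion against control. Calls needed an adjusted p under 0.05 (edgeR, Benjamini-Hochberg over all genes tested) with a fold change over 1.5. No share of all genes called in at least 1 depletion was computed, so the 22 has no such measure beside it. A call is described as lost where another setting or the absence of 1 library took it past either threshold, followed in parentheses by the log2 fold change and adjusted p found there. Calls of marker genes were not followed in this way, and DESeq2 counts are given for marker lists where they differ. Values after ± are standard errors of log2 fold changes, worked back from each log2 fold change and its edgeR F statistic over 2 libraries a group. Hira depletion raised 14 of the 55 members and lowered 3, where 10.8% of all genes tested were called higher and 5.40% lower, and 42 members were tested. Ubn2 depletion raised 7 and lowered 5 of 40 tested, where 9.59% of all genes tested were called higher and 8.75% lower. Ubn1 depletion raised 0 and lowered 1 of 37 tested, where 1.53% of all genes tested were called higher and 1.56% lower, by edgeR's quasi-likelihood test. For the count of 0, 4 members were higher at an unadjusted p under 0.05, 2 by adjusted p alone, and DESeq2 called 0. The median log2 fold change of tested members was 0.36, 0.03 and 0.07 after Hira, Ubn1 and Ubn2 depletion, beside 0.01, -0.00 and -0.00 over all genes tested. The 8 abundant members made 0 of these calls, although Lamb1, Col4a1, Col4a2 and Col18a1 passed the adjusted p alone in at least 1 depletion. The 22 called members thus fell among the 36 tested members below 20 CPM. No share of calls was computed for all genes of like abundance.

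**Figure D2:**
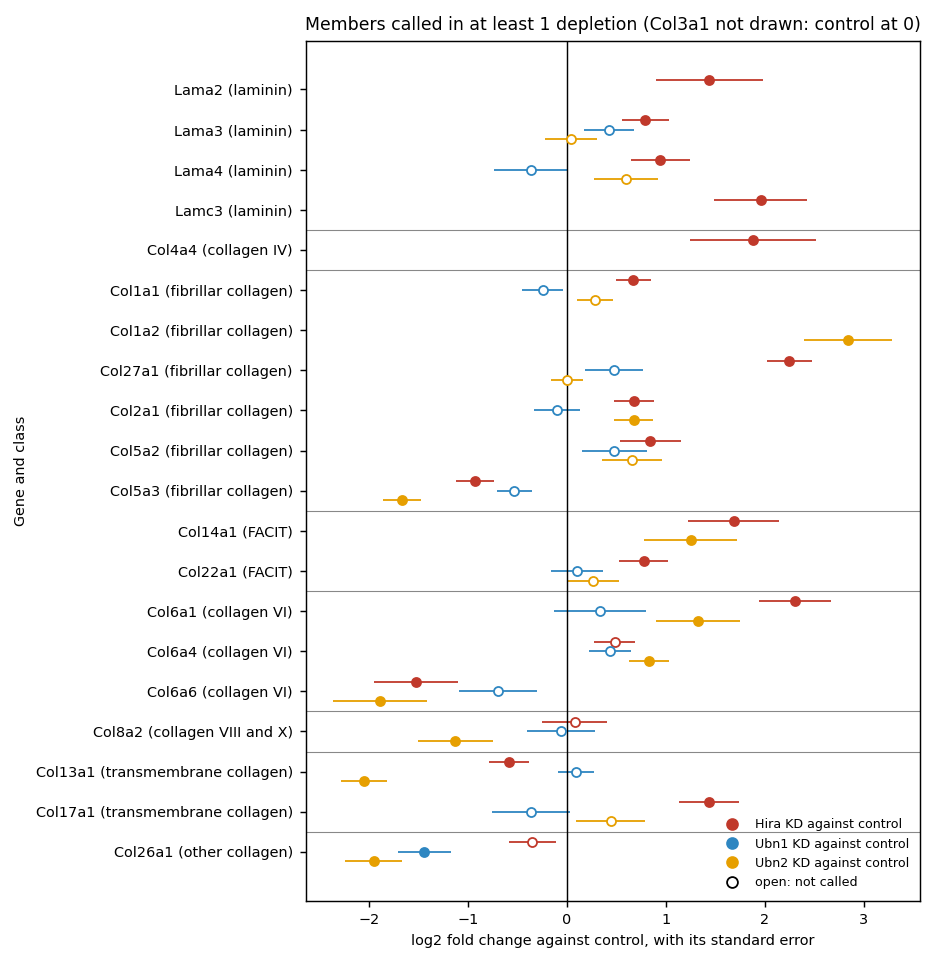
Log2 fold change against control with its standard error for members called in at least 1 depletion, by class (Col3a1 is left out because its control is at 0), with filled points for called and open points for tested but not called. Red Hira points lie mostly right of 0, and Col5a3, Col6a6 and Col13a1 lie left of 0 in both the Hira and the Ubn2 depletion.

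The chains of the trimers that ESCs make most of changed by less than 1.5-fold in every depletion. Lamc1, the gamma chain common to most laminins, was read at 418 and 481 CPM in control, 428 and 506 after Hira, 484 and 495 after Ubn1 and 528 and 465 after Ubn2 depletion. Lama5, the alpha chain of the laminin used to culture human pluripotent cells, was read at 393 and 381, 346 and 394, 350.0 and 435 and 402 and 366 CPM in the same order. The depleted and control ranges overlapped for both genes except Lamc1 after Ubn1 depletion, and their log2 fold changes lay between -0.08 and 0.14 (adjusted p between 0.175 and 0.944). Lama1, the alpha chain of the first embryonic laminin, lay between 50.5 and 68.1 CPM and Lamb2, a beta chain of the neuromuscular junction and the kidney filter, between 37.2 and 52.2, with adjusted p of 0.0900 or more in each depletion. Col18a1 was read at 236 and 273 CPM in control and 324 and 289 after Ubn2 depletion, 1.20-fold higher with an adjusted p of 0.0109 but below the fold threshold, and that p rose without control library 1 (0.16, 0.188) and without Ubn2-depleted library 1 (0.18, 0.0939).

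Lamb1, the beta chain of the widespread laminins, was the abundant laminin chain that separated the depletions. It was read at 95.5 and 105 CPM in control, 123 and 139 after Hira, 75.0 and 90.04 after Ubn1 and 75.2 and 72.7 after Ubn2 depletion. Both Ubn1-depleted libraries also lay below control, with a log2 fold change of -0.28 at an adjusted p of 0.0732. Both Hira-depleted libraries lay above every control library and both Ubn2-depleted libraries below, by 1.29-fold (log2 0.36 ± 0.08, adjusted p = 0.00152) and 1.36-fold (log2 -0.44 ± 0.07, adjusted p = 8.01e-05). Neither reached the fold threshold, and both kept an adjusted p under 0.05 in every alternative and with each library left out. Compared directly, Lamb1 was 1.77-fold higher after Hira than after Ubn2 depletion (log2 0.83 ± 0.08, adjusted p = 3.47e-06), which was called and held without any 1 library.

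**Figure D3:**
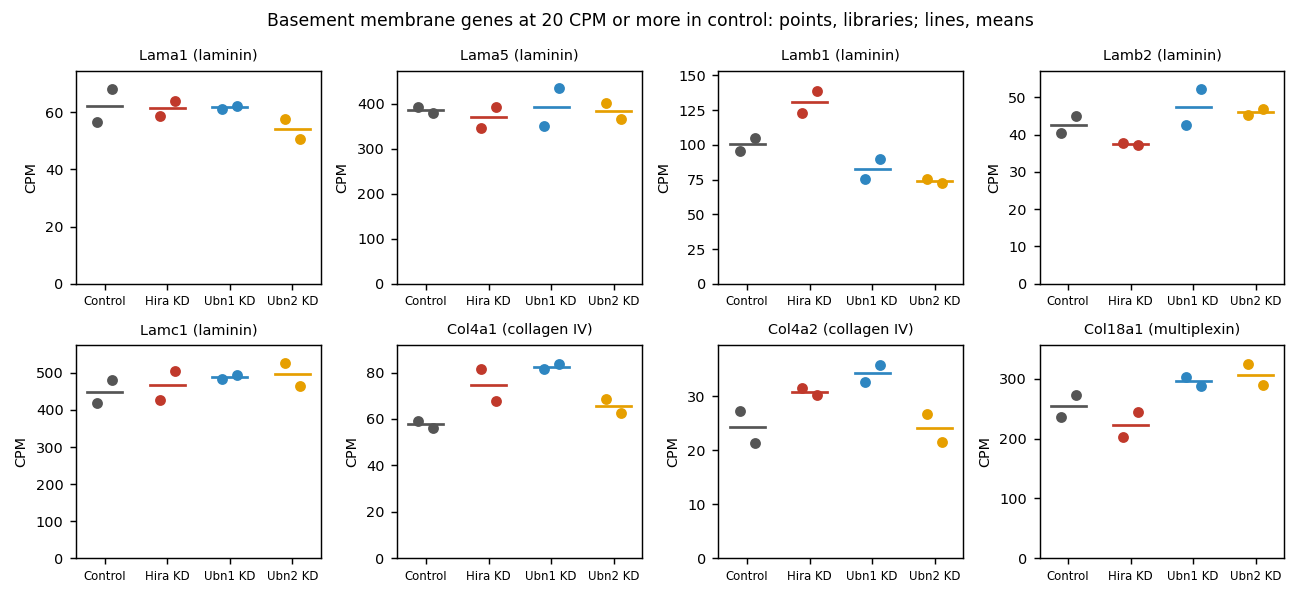
CPM in each library (points) and group means (lines) for the 8 members at 20 CPM or more in control, on axes that start at 0. Lamc1 and Lama5 overlap between nearly all groups, Lamb1 is highest in the Hira-depleted libraries (123 and 139) and has its lowest mean in the Ubn2-depleted ones (75.2 and 72.7), and both collagen IV genes have their highest mean after Ubn1 depletion.

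Col4a1 and Col4a2 encode the 2 chains of the widespread collagen IV trimer and lie head to head on chromosome 8 (GRCm38), their GENCODE gene bounds overlapping by 22 bases. RefSeq promoter windows (GRCm38.p6, 250 bases before to 50 after the start, 5′ to 3′ on the gene's own strand) are printed to show that shared start, with the 78 bases common to both windows in capitals. The windows are chr8:11312777-11313076 on the minus strand and chr8:11312555-11312854 on the plus strand.
Col4a1: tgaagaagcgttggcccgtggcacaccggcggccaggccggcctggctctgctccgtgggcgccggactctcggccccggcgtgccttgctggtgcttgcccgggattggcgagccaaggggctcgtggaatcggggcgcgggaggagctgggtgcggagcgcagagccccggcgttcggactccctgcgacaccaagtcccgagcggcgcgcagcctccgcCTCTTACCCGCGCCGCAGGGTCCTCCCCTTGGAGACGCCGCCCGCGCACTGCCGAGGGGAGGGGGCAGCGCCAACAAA
Col4a2: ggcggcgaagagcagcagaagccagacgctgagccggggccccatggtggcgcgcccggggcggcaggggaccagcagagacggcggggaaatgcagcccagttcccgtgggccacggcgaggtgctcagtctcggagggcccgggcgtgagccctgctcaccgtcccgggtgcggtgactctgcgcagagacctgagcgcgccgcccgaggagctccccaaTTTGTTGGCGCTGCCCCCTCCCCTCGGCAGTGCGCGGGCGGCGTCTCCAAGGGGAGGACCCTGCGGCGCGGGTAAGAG

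The windows hold 74.0% and 73.7% G or C, against a median of 52.7% over 32851 windows. Col4a1 was read at 59.1 and 56.1 CPM in control, 81.6 and 67.7 after Hira, 81.3 and 83.7 after Ubn1 and 68.7 and 62.4 after Ubn2 depletion. Col4a2 was read at 27.2 and 21.3, 31.5 and 30.2, 32.7 and 35.9 and 26.8 and 21.6 CPM in the same order. For both genes all Hira- and Ubn1-depleted libraries lay above the control libraries, and the Ubn1 group had the highest mean. Hira depletion gave log2 fold changes of 0.36 at an adjusted p of 0.00422 for Col4a1 and 0.34 at an adjusted p of 0.0331 for Col4a2, and Ubn1 depletion gave 0.52 at an adjusted p of 0.000649 and 0.50 at an adjusted p of 0.00921, all under the fold threshold and none called. These p-values depended on single libraries: after Hira depletion they passed 0.05 without Hira-depleted library 1 (0.21, 0.123) for Col4a1, and with DESeq2 (0.33, 0.0857), without control library 2 (0.16, 0.443) and without Hira-depleted library 1 (0.30, 0.0850) for Col4a2. After Ubn1 depletion they passed 0.05 without control library 2 (0.47, 0.0532) for Col4a1 and without control library 2 (0.33, 0.322) for Col4a2. After Ubn2 depletion the values were 0.19 at an adjusted p of 0.0773 and 0.00 at an adjusted p of 0.988.

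The other collagen IV chains, which replace the widespread pair in kidney, lung and ear, were scarce. Col4a4 rose after Hira depletion, from 0.243 and 0.126 to 0.545 and 0.806 CPM (log2 1.88 ± 0.64, adjusted p = 0.0266). The Col4a4 call was lost in a joint fit of all 8 libraries (1.89, 0.0530), without control library 1 (2.34, 0.0669), without control library 2 (1.41, 0.288), without Hira-depleted library 1 (2.15, 0.0636) and without Hira-depleted library 2 (1.59, 0.225). Its head-to-head partner Col4a3, 71 bases away, had at most 2 counts in any library, and the pair Col4a5 and Col4a6, 1308 bases apart on the X chromosome, gave no call, Col4a5 having log2 fold changes of -0.66 at an adjusted p of 0.226, -0.34 at an adjusted p of 0.685 and 0.16 at an adjusted p of 0.767. Of the multiplexins, Col15a1 did not pass the filter in any comparison with control, with at most 16 counts in any library.

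The laminin chains Lamc3, Lama4, Lama3 and Lama2, each scarce in control ESCs, rose after Hira depletion. They were not called against control in the other depletions, where Lamc3 and Lama2 did not pass the filter on low counts. Between Hira and Ubn2 depletion directly, Lama4 (log2 0.37, adjusted p = 0.343) and Lama2 (log2 0.94, adjusted p = 0.171) were not called. Nor was Lama3 between Hira and Ubn1 depletion (log2 0.39, adjusted p = 0.204). In the other direct comparisons with Hira depletion these chains were called higher after Hira. Lama4 lay at 3.17 and 2.04 CPM after Ubn2 depletion. Lamc3, the gamma chain of laminins in skin, nerve and brain, was read at 0.389 and 0.346 CPM in control and 1.42 and 1.47 after Hira depletion, against 0.204 to 0.506 in the Ubn1 and Ubn2 groups. The rise was 3.89-fold (log2 1.96 ± 0.47, adjusted p = 0.00263) and held in every alternative. An antisense transcript, Gm13441, shares 6.27% of Lamc3 exon bases and went from 3 and 2 counts in control to 11 and 11 after Hira depletion, and without a stated strand setting reads from the pair cannot be told apart. Lama4, the alpha chain of vessel walls, rose from 2.14 and 1.38 to 3.06 and 3.70 CPM (log2 0.94 ± 0.30, adjusted p = 0.0187). Lama3, the alpha chain of the epithelial laminin, rose from 4.62 and 2.80 to 6.36 and 6.36 CPM (log2 0.79 ± 0.24, adjusted p = 0.0136). Lama2, the alpha chain of muscle and Schwann cells, rose from 0.195 and 0.377 to 0.848 and 0.806 CPM (log2 1.44 ± 0.54, adjusted p = 0.0444). Unlike that of Lamc3, the calls of Lama4, Lama3 and Lama2 depended on single libraries. The Lama4 call was lost with DESeq2 (0.93, 0.0624), without control library 2 (0.63, 0.225) and without Hira-depleted library 2 (0.81, 0.0675). The Lama3 call was lost without control library 2 (0.44, 0.249), and the Lama2 call with no filter (1.43, 0.0514), with DESeq2 (1.47, 0.178), in a joint fit of all 8 libraries (1.46, 0.0558), without control library 1 (1.11, 0.281), without control library 2 (2.04, 0.0905), without Hira-depleted library 1 (1.40, 0.204) and without Hira-depleted library 2 (1.47, 0.137). Lamb3 was read at 2.34 and 1.41 CPM in control and 2.94 and 2.23 after Hira depletion and was not called (log2 0.49 ± 0.32, adjusted p = 0.247).

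Where markers of other cell types moved after Hira depletion they are given here, since a bulk library cannot tell more cells of a type from more RNA per cell. The sum of 9 neural markers was 265 and 277 CPM against 122 and 130.1 in control, with 4 called higher and Dcx at 0 in every library. The sum of 12 endothelium and blood markers was 51.9 and 54.8 CPM against 19.8 and 19.7, with 3 called higher and 1 lower. The largest level differences came from Nefl and Tubb3 for neural cells and Tek for endothelium. The sum of 15 primitive and parietal endoderm markers was 205 and 204 CPM against 172 and 169, and without Sparc, an abundant ESC transcript, the sum of the other 14 was 26.6 and 25.4 CPM against 29.2 and 29.0, with 2 called higher and 1 lower. The sum of 10 trophoblast markers was 18.8 and 20.2 CPM against 14.2 and 16.9, with Cdx2 and Hand1 called higher, Ascl2 called lower, and Tpbpa and Prl3d1 at 0 in every library. The sum of 13 fibroblast and mesenchyme markers was 44.0 and 37.4 CPM against 38.2 and 41.9, with Twist1 called higher, Pdgfrb called lower and Fap at 0 in every library. The sum of 16 heart muscle markers was 49.9 and 57.6 CPM against 59.0 and 63.1, with Myl7 and Ttn called lower and 0 called higher. Of these lists 6 neural, 5 endothelium and blood, 10 endoderm, 5 trophoblast, 5 mesenchyme and 11 heart muscle markers were tested. The shares of all genes tested were 10.8% called higher and 5.40% lower after Hira depletion. DESeq2 called 0 endoderm markers higher, 1 trophoblast marker higher and 1 heart muscle marker lower, and gave the same counts for the rest. The part of any such cells in the laminin changes was not tested.

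Fibrillar collagen genes called after Hira and Ubn2 depletion differed in part, with Col2a1 higher and Col5a3 lower in both. Of the 11 genes 8 were tested after Hira depletion, with 4 called higher and 1 lower, 10 after Ubn2 depletion, with 3 higher and 1 lower, and 8 after Ubn1 depletion, with 0 called (0 higher and 1 lower at an unadjusted p under 0.05, and 0 by DESeq2). Over all genes tested, 10.8% were called higher and 5.40% lower after Hira, 9.59% and 8.75% after Ubn2, and 1.53% and 1.56% after Ubn1 depletion. The summed level of the class was 54.4 and 52.1 CPM in control, 75.1 and 69.5 after Hira, 47.3 and 53.6 after Ubn1 and 55.7 and 51.9 after Ubn2 depletion, so the Hira-depleted libraries lay above all others. The sum of the basement membrane genes did not separate in this way, with 1349 and 1449, 1347 and 1523, 1455 and 1566 and 1579.7 and 1417 CPM in the same order.

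Col27a1, a fibrillar collagen of developing cartilage, had the clearest fibrillar change after Hira depletion. It was read at 2.82 and 1.79 CPM in control, 11.5 and 10.1 after Hira, 3.56 and 2.76 after Ubn1 and 1.70 and 2.85 after Ubn2 depletion. Both Hira-depleted libraries stood above the other 6, which overlapped each other. The rise was 4.75-fold (log2 2.25 ± 0.23, adjusted p = 2.41e-07), and direct comparison put Hira depletion 4.79-fold above Ubn2 (log2 2.26 ± 0.24, adjusted p = 7.21e-06) and 3.45-fold above Ubn1 depletion (log2 1.79 ± 0.21, adjusted p = 8.2e-07). All of these calls held in every alternative and with each library left out.

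Col2a1, the main collagen of cartilage, was read at 4.14 and 5.53 CPM in control, 8.48 and 7.26 after Hira, 3.78 and 5.30 after Ubn1 and 7.63 and 8.003 after Ubn2 depletion. It rose after Hira (log2 0.68 ± 0.20, adjusted p = 0.0128) and Ubn2 depletion (log2 0.67 ± 0.20, adjusted p = 0.00907). The first call was lost without control library 1 (0.49, 0.128) and without Hira-depleted library 1 (0.55, 0.0736), and the second without control library 1 (0.49, 0.0884). Of 11 cartilage and bone markers 5 were tested in each depletion. Acan and Matn1 were called higher after Hira depletion, and the list summed to 27.7 and 25.0 CPM against 11.1 and 11.2 in control. The shares of all genes tested called higher were 10.8% after Hira, 1.53% after Ubn1 and 9.59% after Ubn2 depletion, with 8.75% lower after Ubn2. Matn1 was also called higher after Ubn1 and after Ubn2 depletion, whereas DESeq2 called 0 of the list higher after Ubn1 depletion. After Ubn2 depletion the list had 16.1 and 19.4 CPM, and Acan and Comp were called lower, whereas DESeq2 called 0 lower. The bone gene Ibsp was at 0 in every library. The regulator Sox9 lay at 0.182 and 0.0474 CPM after Hira and 0.368 and 0.459 after Ubn2 depletion. Their part in the Col2a1 and Col27a1 changes was not tested.

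The 2 chains of collagen I, the most abundant collagen of the body, were called in different depletions. Col1a1 was read at 6.77 and 5.85 CPM in control, 10.1 and 10.1 after Hira, 4.70 and 5.87 after Ubn1 and 8.23 and 7.03 after Ubn2 depletion, and rose after Hira depletion (log2 0.67 ± 0.18, adjusted p = 0.00522). The Col1a1 call was lost without control library 2 (0.56, 0.0590). After Ubn2 depletion Col1a1 was not called (log2 0.28 ± 0.18, adjusted p = 0.234). Col1a2 was read at 0.292 and 0.377 CPM in control, 0.303 and 0.285 after Hira, 0.182 and 0.346 after Ubn1 and 3.17 and 1.78 after Ubn2 depletion, a 7.19-fold rise in the last (log2 2.85 ± 0.45, adjusted p = 3.32e-05). Col3a1, which forms fibrils with collagen I in vessels and soft tissue, had 0 counts in both control and both Ubn1-depleted libraries, 2 and 3 counts after Hira and 147 and 81 after Ubn2 depletion, the last being 6.76 and 4.13 CPM. Its mean after Ubn2 depletion was 45.3-fold the mean 3-count floor of the control libraries (edgeR adjusted p against control = 2.65e-09). It was 43.2-fold the mean floor of the Ubn1-depleted libraries (edgeR adjusted p against Ubn1 depletion = 4.63e-07). The Col1a2 and Col3a1 calls held in every alternative that could be fitted and with each library left out.

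Transcripts of several tissues were higher along with Col3a1 and Col1a2 in the Ubn2-depleted libraries. Of the 16 heart muscle markers 13 were called higher and 1, Myl7, lower. Over all genes tested, 9.59% were called higher and 8.75% lower. Among the 13 were Actc1 at 85.3 and 49.7 CPM against 0.0974 and 0.189 in control and Myh6, a heart myosin chain, at 63.1 and 41.0 against 5.45 and 4.53. Of 13 fibroblast and mesenchyme markers 7 were tested, with 4 called higher (Twist1, Postn, Acta2 and Tagln) and 2 lower (Thy1 and Pdgfrb). DESeq2 called 3 of them higher and 2 lower. Postn was at 1.33 and 0.714 CPM and Dcn at 0.965 and 0.153 (not tested), both with 0 counts in the other 6 libraries, Acta2 was at 10.7 and 7.29, and Fap was at 0 in every library. Of 12 endothelium and blood markers 8 were tested, with 5 called higher and 0 lower. Their sum was 46.2 and 37.9 CPM against 19.8 and 19.7 in control. Among those higher, the endothelial gene Cdh5 was at 3.45 and 1.48 CPM against 0.146 and 0.0943. The adult globin gene Hbb-bs was at 3.45 and 2.29 against 0 in control. Tie1 (2.62 and 2.14 CPM against 1.90 and 2.77) and Gata1 (0.919 and 0.816 against 1.46 and 1.48) were not called. The embryonic globin gene Hbb-bh1 was at 0 in every library. The ratio of the first to the second Ubn2-depleted library was 1.64 for Col3a1 and 1.78 for Col1a2, with a median of 1.55 (1.01 to 2.24) over the 13 heart markers and of 1.11 (0.963 to 1.24) over the 8 abundant members. Col6a3 and Col12a1, collagen genes that passed the filter in no comparison with control, had 1.01 and 0.306 CPM and 0.782 and 0.306 CPM in these libraries, against 0.0974 and 0.126 and 0.195 and 0.157 in control. The part of these other transcripts in the Col3a1 and Col1a2 results was not tested.

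**Figure D4:**
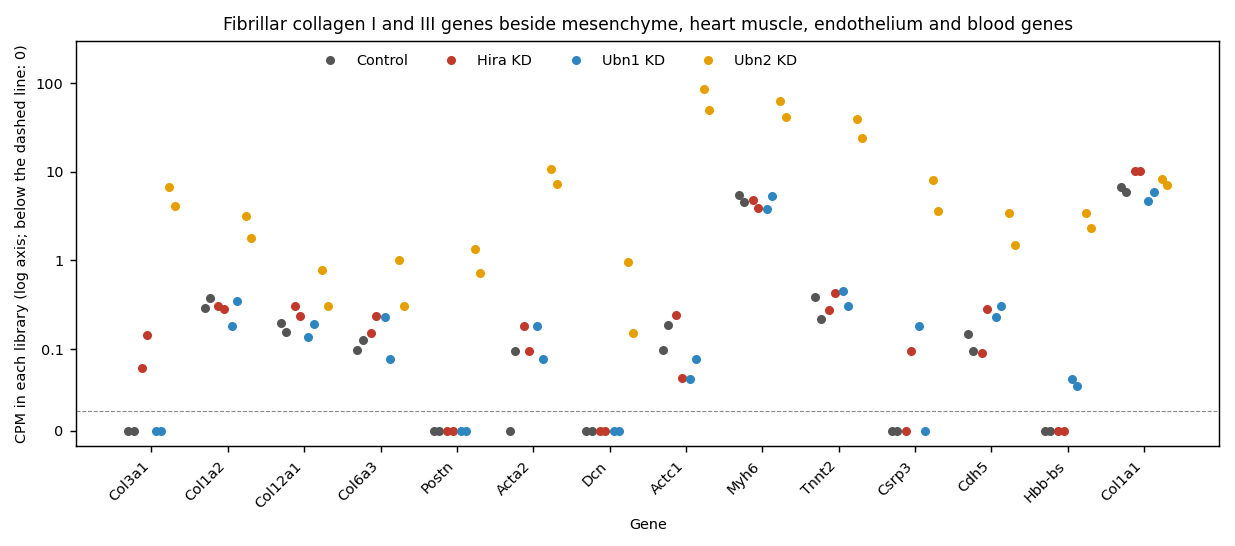
CPM in each of the 8 libraries (log axis, with 0 drawn below the dashed line) for Col3a1, Col1a2, Col12a1 and Col6a3 beside genes of mesenchyme, heart muscle, endothelium and blood, with Col1a1 at the right. The Ubn2-depleted libraries (orange) stand above the other 6 for Col3a1 (6.76 and 4.13), Col1a2 and every marker drawn, and the first of the pair is the higher one each time. The markers drawn are a selection of those higher in these libraries. Myl7, Thy1 and Pdgfrb, called lower after Ubn2 depletion, are not drawn.

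The promoter windows of Col3a1 and Col1a2 are printed as start regions of fibrillar genes that rose after Ubn2 depletion (RefSeq, GRCm38.p6, plus strand, chr1:45311288-45311587 and chr6:4505368-4505667). Col2a1, which was also called higher there, had no window. Capitals mark the motifs TATAAA and CCAAT, searched on both strands, so that CCAAT read from the other strand appears as ATTGG and TATAAA as TTTATA.
Col3a1: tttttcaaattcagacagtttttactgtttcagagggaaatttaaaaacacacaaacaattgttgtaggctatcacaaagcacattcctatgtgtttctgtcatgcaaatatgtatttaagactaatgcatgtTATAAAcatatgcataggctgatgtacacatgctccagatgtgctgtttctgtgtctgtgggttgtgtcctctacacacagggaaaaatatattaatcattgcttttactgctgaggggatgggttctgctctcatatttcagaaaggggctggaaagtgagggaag
Col1a2: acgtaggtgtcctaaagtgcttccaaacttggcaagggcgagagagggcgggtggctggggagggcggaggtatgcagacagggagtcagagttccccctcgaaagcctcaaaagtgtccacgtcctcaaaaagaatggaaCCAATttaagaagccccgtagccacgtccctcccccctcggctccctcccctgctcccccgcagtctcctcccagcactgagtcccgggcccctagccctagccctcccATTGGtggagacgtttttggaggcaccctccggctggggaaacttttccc

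Col3a1 holds TATAAA, in a window of 37.7% G or C with 0 CpG, and Col1a2 holds CCAAT in each orientation at 61.0% G or C. TATAAA occurred in 13.6% and CCAAT in 37.4% of all 32851 windows, and TATAAA occurred in 5 of the 44 windows of members (11.4%), which covered 40 of the 55 genes. A match describes the letters alone, and promoter activity was not measured.

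Collagen V chains, minor partners that start and limit fibrils, were called in both directions. Col5a3 was read at 10.1 and 10.2 CPM in control, 6.18 and 4.46 after Hira, 6.43 and 7.60 after Ubn1 and 3.03 and 3.36 after Ubn2 depletion, and no depleted library reached a control library. It fell after Hira (log2 -0.93 ± 0.19, adjusted p = 0.000685) and after Ubn2 depletion (log2 -1.67 ± 0.19, adjusted p = 6.52e-07), both calls holding in every alternative, and was not called after Ubn1 depletion (log2 -0.53 ± 0.18, adjusted p = 0.0586). Col5a2, which lies 24.6 kb from Col3a1 on the opposite strand of chromosome 1, was read at 2.04 and 1.45 CPM in control and 2.57 and 3.75 after Hira depletion (log2 0.84 ± 0.31, adjusted p = 0.0395). The Col5a2 call was lost with DESeq2 (0.84, 0.112), without control library 2 (0.59, 0.278) and without Hira-depleted library 2 (0.56, 0.260). Col5a1, the most abundant fibrillar gene, was read at 19.8 and 18.4 CPM in control, 25.2 and 25.6 after Hira and 14.8 and 14.1 after Ubn2 depletion, with log2 fold changes of 0.40 at an adjusted p of 0.0109 and -0.40 at an adjusted p of 0.0161, both under the fold threshold. They passed 0.05 without control library 2 (0.34, 0.0965) for Hira, and without control library 1 (-0.35, 0.0770) and without Ubn2-depleted library 2 (-0.36, 0.0752) for Ubn2 depletion. Col11a1 and Col11a2, chains of cartilage fibrils, were not called in any depletion, with 6.96 and 6.70 and 1.27 and 1.76 CPM in control, and Col24a1 did not pass the filter in any comparison with control.

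Collagen VI, the beaded filament around muscle and nerve, has its genes in clusters and was called in both directions. Col6a1 was read at 0.974 and 0.597 CPM in control, 4.78 and 2.70 after Hira, 1.09 and 0.845 after Ubn1 and 2.53 and 1.27 after Ubn2 depletion. It rose 4.94-fold after Hira (log2 2.31 ± 0.36, adjusted p = 5.14e-05) and 2.50-fold after Ubn2 depletion (log2 1.32 ± 0.42, adjusted p = 0.0172). The Hira call held in every alternative, whereas the Ubn2 call was lost with DESeq2 (1.30, 0.0739), without control library 2 (0.97, 0.117) and without Ubn2-depleted library 1 (0.74, 0.375). Col6a2, 85.2 kb away on the same strand of chromosome 10, encodes the partner chain and was called in no depletion, with 3.55 and 3.21 CPM in control and 4.69 and 3.46 after Hira depletion. Col6a4, Col6a5 and Col6a6 lie in tandem on chromosome 9, with gaps of 28.8 and 27.9 kb. Col6a4 rose from 4.09 and 6.25 to 8.69 and 10.0 CPM after Ubn2 depletion (log2 0.83 ± 0.20, adjusted p = 0.0023). The Col6a4 call was lost without control library 1 (0.57, 0.0312). Col6a6 fell from 1.51 and 1.57 CPM to 0.515 and 0.569 after Hira (log2 -1.53 ± 0.43, adjusted p = 0.00838) and 0.276 and 0.561 after Ubn2 depletion (log2 -1.89 ± 0.47, adjusted p = 0.00305). The Hira call of Col6a6 was lost without control library 2 (-1.498, 0.0637). Col6a5, between them, lay at 6.33 and 5.78 CPM in control and between 4.33 and 6.88 in the depleted libraries, and was not called.

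The transmembrane collagens included the gene most lowered by Ubn2 depletion among all members, Col13a1, a muscle and neuromuscular junction collagen. It was read at 8.42 and 6.95 CPM in control, 5.84 and 4.32 after Hira, 7.93 and 8.33 after Ubn1 and 1.79 and 1.89 after Ubn2 depletion. The fall was 4.15-fold after Ubn2 (log2 -2.05 ± 0.23, adjusted p = 5.62e-07) and held in every alternative, and 1.503-fold after Hira depletion (log2 -0.59 ± 0.21, adjusted p = 0.0307), where the call was lost with the 10-count filter (-0.57, 0.0357), with DESeq2 (-0.61, 0.0652), in a joint fit of all 8 libraries (-0.57, 0.0306), without control library 1 (-0.46, 0.184) and without Hira-depleted library 2 (-0.41, 0.171). Col17a1, the hemidesmosome collagen of epithelia, rose after Hira depletion from 0.974 and 2.07 to 4.42 and 4.27 CPM (log2 1.44 ± 0.30, adjusted p = 0.000944) and held in every alternative. In the Ubn2-depleted libraries it lay at 2.25 and 2.04 CPM, and was not called. Col23a1 was not called, and of the comparisons with control Col25a1 passed the filter only after Hira depletion (adjusted p = 0.136).

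**Figure D5:**
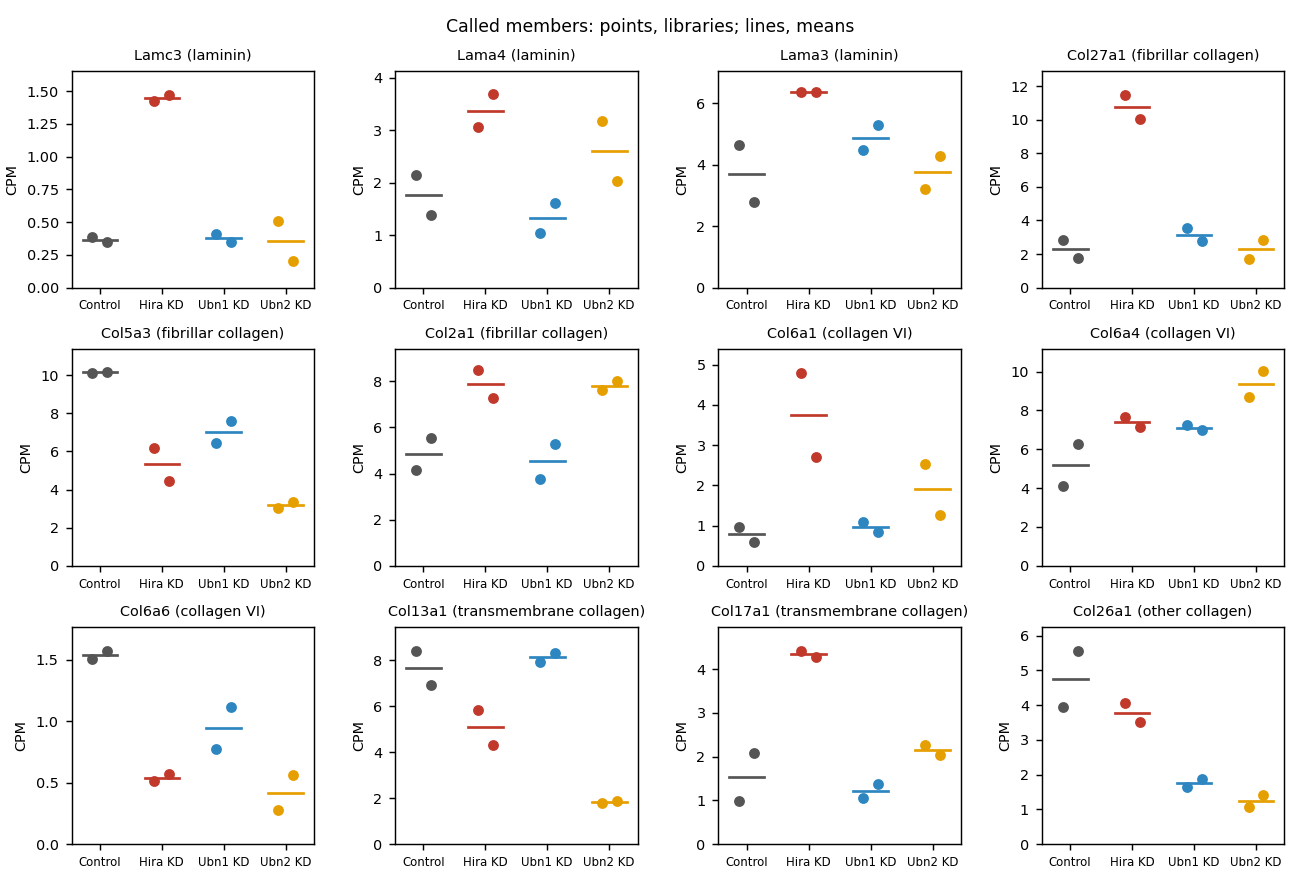
CPM in each library (points) and group means (lines) for 12 called members, on axes that start at 0. Lamc3, Col27a1 and Col17a1 are raised in the Hira-depleted libraries, Col2a1 and Col6a1 in the Hira- and the Ubn2-depleted ones, and Col26a1 is lowered in the Ubn1- and Ubn2-depleted ones.

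Col26a1, a small collagen with an EMI domain, was the only member called after Ubn1 depletion. It was read at 3.94 and 5.56 CPM in control, 4.06 and 3.51 after Hira, 1.64 and 1.88 after Ubn1 and 1.06 and 1.43 after Ubn2 depletion. The Ubn1 and Ubn2 groups lay wholly below the control and Hira groups. The fall was 2.72-fold after Ubn1 (log2 -1.44 ± 0.27, adjusted p = 0.000693), lost without control library 2 (-1.16, 0.0561), and 3.88-fold after Ubn2 depletion (log2 -1.95 ± 0.29, adjusted p = 1.74e-05), which held in every alternative. Compared directly, Col26a1 was higher after Hira than after Ubn1 (log2 1.11 ± 0.29, adjusted p = 0.00589) and than after Ubn2 depletion (log2 1.62 ± 0.30, adjusted p = 0.000788), and it was not called between Ubn2 and Ubn1 depletion. The Hira-to-Ubn1 call was lost without Hira-depleted library 1 (0.997, 0.0661).

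Of the 9 FACIT genes, whose products sit on fibril surfaces, 6 were tested after Hira depletion, with 2 called higher, and 6 after Ubn2 depletion, with 1 called higher, beside 10.8% and 9.59% of all genes tested. Col14a1, a fibril regulator of skin and tendon, was read at 0.584 and 0.409 CPM in control, 1.24 and 1.99 after Hira, 0.228 and 0.307 after Ubn1 and 1.15 and 1.17 after Ubn2 depletion. It rose after Hira (log2 1.69 ± 0.46, adjusted p = 0.0069). The Hira call of Col14a1 was lost without control library 2 (1.41, 0.0724) and without Hira-depleted library 2 (1.33, 0.0851). It also rose after Ubn2 depletion (log2 1.25 ± 0.47, adjusted p = 0.0399). That Ubn2 call was lost with DESeq2 (1.25, 0.165), with the replicate block (1.24, 0.0511), without control library 1 (1.49, 0.0804), without control library 2 (0.98, 0.261), without Ubn2-depleted library 1 (1.27, 0.154) and without Ubn2-depleted library 2 (1.24, 0.155). Col22a1, a collagen of the muscle-tendon junction, rose from 2.63 and 3.02 to 5.66 and 4.08 CPM after Hira depletion (log2 0.78 ± 0.25, adjusted p = 0.0198). The Col22a1 call was lost with DESeq2 (0.77, 0.0601), without control library 1 (0.68, 0.0860) and without Hira-depleted library 1 (0.50, 0.225). Col9a2 was read at 21.2 and 17.6 CPM in control, 26.8 and 23.0 after Hira and 13.0 and 15.9 after Ubn2 depletion, with log2 fold changes of 0.36 at an adjusted p of 0.0337 and -0.42 at an adjusted p of 0.0197, under the fold threshold. Those p-values passed 0.05 with DESeq2 (0.35, 0.0871), without control library 2 (0.22, 0.316) and without Hira-depleted library 1 (0.23, 0.249) for Hira, and with DESeq2 (-0.42, 0.0543), without control library 1 (-0.30, 0.156) and without Ubn2-depleted library 1 (-0.28, 0.197) for Ubn2 depletion. Its partner Col9a3, Col16a1 and Col20a1 were not called in any depletion. Among the rest, Col8a2, a network collagen of the cornea, fell from 2.00 and 1.73 to 0.919 and 0.765 CPM after Ubn2 depletion (log2 -1.13 ± 0.38, adjusted p = 0.0211). The Col8a2 call was lost with DESeq2 (-1.14, 0.0994), without control library 1 (-1.04, 0.0978), without Ubn2-depleted library 1 (-1.27, 0.0508) and without Ubn2-depleted library 2 (-1.005, 0.104). Col7a1, the anchoring fibril collagen, lay between 4.10 and 6.86 CPM in all libraries and was not called.

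Genes that make collagen were followed from lists of matrix genes, as these proteins fold, modify and cut the chains described above. Of 23 collagen synthesis genes, 6 of 22 tested were called higher and 0 lower after Hira depletion, 1 of 20 higher and 3 lower after Ubn2 depletion, and 0 of 21 after Ubn1 depletion (3 higher and 1 lower at an unadjusted p under 0.05, and 0 higher and 0 lower by DESeq2). These counts and those of the next lists stand beside 10.8% of all genes tested called higher and 5.40% lower after Hira, 9.59% and 8.75% after Ubn2, and 1.53% and 1.56% after Ubn1 depletion. Serpinh1, the collagen chaperone HSP47, rose from 60.7 and 66.2 to 180.3 and 148 CPM after Hira depletion (log2 1.36 ± 0.09, adjusted p = 1.32e-09), and lay at 85.6 and 90.9 after Ubn2 depletion (0.47 at an adjusted p of 5.59e-05, under the fold threshold). Fkbp10, another procollagen chaperone, rose from 25.5 and 29.9 CPM to 60.2 and 58.4 after Hira (log2 1.08 ± 0.10, adjusted p = 7.54e-08) and 51.1 and 53.2 after Ubn2 depletion (log2 0.91 ± 0.10, adjusted p = 3.78e-07). Creb3l1, a transcription factor of collagen-secreting cells, rose to 32.2 and 33.2 from 13.6 and 16.3 CPM after Hira depletion (log2 1.10 ± 0.12, adjusted p = 6.56e-07), with 14.7 and 15.5 after Ubn2 depletion. P3h4, a partner of lysyl hydroxylase, rose from 13.6 and 13.5 to 21.7 and 21.6 CPM (log2 0.65 ± 0.13, adjusted p = 0.00038). The genes that fell after Ubn2 depletion were the prolyl hydroxylase subunits P4ha1, from 60.4 and 67.9 to 31.5 and 34.7 CPM (log2 -0.96 ± 0.09, adjusted p = 7.21e-08), and P4ha2, from 33.4 and 30.9 to 11.6 and 18.5 (log2 -1.10 ± 0.15, adjusted p = 5.85e-06). Plod2, a lysyl hydroxylase of collagen ends, fell from 145 and 128 to 90.02 and 89.5 CPM (log2 -0.60 ± 0.07, adjusted p = 1.17e-06), just past the fold threshold, and was not called without control library 1 (-0.52, 1.45e-08).

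Of 13 genes that process or cross-link collagen outside the cell, 11 were tested in each depletion, with 4 called higher and 0 lower after Hira, 3 higher and 1 lower after Ubn2, and 0 after Ubn1 depletion (2 higher and 2 lower at an unadjusted p under 0.05, and 0 higher and 0 lower by DESeq2). Bmp1, which cuts procollagen ends, rose from 4.33 and 3.33 CPM to 10.7 and 8.11 after Hira (log2 1.31 ± 0.21, adjusted p = 6.3e-05) and 8.09 and 9.12 after Ubn2 depletion (log2 1.18 ± 0.20, adjusted p = 8.23e-05). Its relative Tll1 rose from 1.07 and 0.692 CPM to 2.21 and 3.94 and 3.40 and 1.94 in the same depletions (log2 fold changes 1.79 at an adjusted p of 0.000862 and 1.64 at an adjusted p of 0.00145). The Ubn2 call of Tll1 was lost without Ubn2-depleted library 1 (1.17, 0.0706). Loxl2, a lysyl oxidase that cross-links collagen IV, fell from 31.6 and 37.5 to 7.68 and 8.67 CPM after Ubn2 depletion (log2 -2.09 ± 0.13, adjusted p = 1.57e-10), and lay at 45.1 and 30.9 after Hira and 26.5 and 31.7 after Ubn1 depletion. Loxl4 rose from 0.682 and 0.660 to 1.66 and 1.84 CPM after Ubn2 depletion (log2 1.37 ± 0.40, adjusted p = 0.00998). The Loxl4 call was lost without Ubn2-depleted library 2 (1.30, 0.0610). After Hira depletion Adamts2, the procollagen N-proteinase, rose from 2.34 and 1.60 to 5.15 and 3.27 CPM (log2 1.13 ± 0.29, adjusted p = 0.00499). The Adamts2 call was lost without control library 2 (0.85, 0.0563) and without Hira-depleted library 1 (0.74, 0.109). Pcolce2, an enhancer of Bmp1, rose from 16.2 and 13.9 to 23.1 and 25.0 (log2 0.67 ± 0.13, adjusted p = 0.000349). The Pcolce2 call was lost without control library 2 (0.55, 0.00509).

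Of 25 other basement membrane genes, 5 of 21 tested were called higher and 1 lower after Hira, 2 of 19 higher and 3 lower after Ubn2, and 0 of 21 after Ubn1 depletion (5 higher and 1 lower at an unadjusted p under 0.05, and 0 higher and 0 lower by DESeq2). The linkers of the laminin and collagen IV networks stayed under the fold threshold against control. Nid1, nidogen, was read at 186 and 189 CPM in control, 135 and 148 after Hira, 233 and 249.6 after Ubn1 and 139 and 139 after Ubn2 depletion, with log2 fold changes of -0.42 at an adjusted p of 0.000194, 0.36 at an adjusted p of 0.0109 and -0.43 at an adjusted p of 2.73e-05. Its Hira and Ubn2 groups lay below control and its Ubn1 group above. In direct comparisons Nid1 was called lower after Hira than after Ubn1 depletion, and lower after Ubn2 than after Ubn1 depletion. Nid2, the other nidogen, was read at 701 and 727 CPM in control and was not called against it. Its levels were 560 and 582 CPM after Hira, 727 and 821 after Ubn1 and 690 and 653 after Ubn2 depletion. Hspg2, perlecan, was read at 687 and 653 CPM in control and 792 and 942 after Ubn1 depletion (0.37 at an adjusted p of 0.0143), the depletion in which Col4a1 and Col4a2 also had their highest means. Npnt, the integrin ligand nephronectin, rose after Hira depletion from 3.36 and 3.65 to 11.0 and 10.8 CPM (log2 1.62 ± 0.19, adjusted p = 1.61e-06), and lay at 3.54 and 3.52 after Ubn2 depletion. Ntn1, netrin, rose from 101 and 118 to 163 and 186 (log2 0.65 ± 0.09, adjusted p = 6.72e-06), under the fold threshold without control library 1 (0.54, 1.38e-05) and without Hira-depleted library 2 (0.56, 2.43e-08), and Papln rose from 0.779 and 0.377 to 2.45 and 2.66 (log2 2.19 ± 0.40, adjusted p = 0.000232). Fbln1, fibulin, fell from 47.2 and 50.6 CPM to 32.5 and 27.6 after Hira (log2 -0.72 ± 0.10, adjusted p = 1.56e-05) and 27.5 and 24.7 after Ubn2 depletion (log2 -0.91 ± 0.10, adjusted p = 3.53e-07). Fbln2, of the same family, fell from 9.64 and 10.0 to 4.0 and 4.94 after Ubn2 depletion (log2 -1.14 ± 0.19, adjusted p = 5.01e-05). After Ubn2 depletion Hmcn2, a hemicentin, rose from 13.1 and 14.9 to 30.8 and 31.1 CPM (log2 1.14 ± 0.12, adjusted p = 1.64e-07) and Egfl6 from 1.12 and 0.597 to 3.36 and 4.43 (log2 2.23 ± 0.34, adjusted p = 2.56e-05), and both were called higher after Hira depletion as well.

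Direct comparison of the depletions asked whether members differed between them, without the shared control. The targets fell unequally, with log2 fold changes of -3.22 for Hira, -1.03 for Ubn1 and -0.90 for Ubn2. After Hira depletion Ubn1 (log2 0.48, edgeR adjusted p = 0.000464) and Ubn2 (log2 0.26, adjusted p = 0.0231) were higher, under the fold threshold. So was Hira after Ubn2 depletion (log2 0.19, adjusted p = 0.0424). The part of these differences in the comparisons was not tested. Between Hira and Ubn2 depletion 14 members were higher after Hira and 3 lower, of 45 tested, where 12.0% of all genes tested were called higher and 5.61% lower. The 14 were Lama3, Lamb1, Lamb3, Lamc3, Col5a1, Col5a3, Col27a1, Col9a2, Col6a1, Col8a2, Col13a1, Col17a1, Col25a1 and Col26a1, and Col1a2 and Col3a1 were among those lower. Col13a1 was 2.80-fold higher after Hira than after Ubn2 depletion (log2 1.48 ± 0.27, adjusted p = 0.000603), although both lay below control. Col5a1 and Col9a2, each under the fold threshold against control, differed by 1.77-fold (log2 0.82 ± 0.12, adjusted p = 9.82e-05) and 1.74-fold (log2 0.80 ± 0.13, adjusted p = 0.000354), and both calls held in every alternative. Lamb3 differed as well (log2 1.31 ± 0.43, adjusted p = 0.0262). The Lamb3 call was lost with DESeq2 (1.31, 0.0561), without Hira-depleted library 1 (1.09, 0.0653) and without Ubn2-depleted library 2 (0.70, 0.222). In this comparison the Col6a1 call was lost with DESeq2 (0.98, 0.0781), without Hira-depleted library 1 (0.50, 0.347) and without Ubn2-depleted library 2 (0.60, 0.203). For Col5a3 that happened with DESeq2 (0.74, 0.0685), without Hira-depleted library 1 (0.49, 0.232) and without Ubn2-depleted library 1 (0.68, 0.0962). For Col8a2 it happened with DESeq2 (1.21, 0.0846), without Hira-depleted library 1 (0.85, 0.271) and without Ubn2-depleted library 2 (1.10, 0.0970). Lama3 was lost without Ubn2-depleted library 1 (0.57, 0.129), and Lamc3 without Ubn2-depleted library 2 (1.51, 0.0651). Col25a1, at 0.575 and 0.474 CPM after Hira and 0 and 0.204 after Ubn2 depletion, was lost with DESeq2 (2.40, 0.157), in a joint fit of all 8 libraries (2.38, 0.0629), without Hira-depleted library 2 (2.51, 0.0797) and without Ubn2-depleted library 1 (1.36, 0.370).

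Between Hira and Ubn1 depletion 13 of 42 tested members were higher after Hira and 1 lower, where 9.52% of all genes tested were called higher and 3.16% lower. Those higher included Lama2, Lama4, Lamb1, Lamc3, Col1a1, Col2a1, Col27a1, Col14a1, Col22a1, Col6a1, Col17a1 and Col26a1, with Col13a1 the lower one. Lama4 was 2.51-fold higher (log2 1.33 ± 0.33, adjusted p = 0.0035), Col1a1 1.92-fold (log2 0.94 ± 0.20, adjusted p = 0.000829) and Col14a1 5.83-fold (log2 2.54 ± 0.52, adjusted p = 0.000671), and these calls held in every alternative. Against Ubn1 depletion, the Lama2 call was lost with DESeq2 (1.72, 0.142), without Hira-depleted library 1 (1.68, 0.224), without Hira-depleted library 2 (1.75, 0.132), without Ubn1-depleted library 1 (1.59, 0.156) and without Ubn1-depleted library 2 (1.84, 0.127). Col2a1 was lost without Hira-depleted library 1 (0.68, 0.0804) and without Ubn1-depleted library 1 (0.56, 0.0888). Col22a1 was lost with DESeq2's size factors (0.67, 0.0531), with DESeq2 (0.67, 0.136), with the replicate block (0.68, 0.0819), without Hira-depleted library 1 (0.43, 0.454), without Ubn1-depleted library 1 (0.56, 0.184) and without Ubn1-depleted library 2 (0.82, 0.0545). Col13a1 was lost without Hira-depleted library 2 (-0.47, 0.197) and without Ubn1-depleted library 2 (-0.63, 0.0624). Lamb1 fell under the fold threshold without Hira-depleted library 2 (0.58, 0.000622) and without Ubn1-depleted library 1 (0.52, 4.31e-05). Between Ubn2 and Ubn1 depletion 5 of 40 tested members were higher after Ubn2 and 3 lower, where 4.61% of all genes tested were called higher and 4.09% lower. Col1a2 (log2 3.18 ± 0.49, adjusted p = 0.000273) and Col3a1 were higher, as were Col2a1 (log2 0.77 ± 0.21, adjusted p = 0.0186) and Col14a1 (log2 2.08 ± 0.53, adjusted p = 0.0123). Col13a1 (log2 -2.14 ± 0.23, adjusted p = 8.09e-06), Col5a3 (log2 -1.14 ± 0.22, adjusted p = 0.00186) and Col9a2 (log2 -0.65 ± 0.14, adjusted p = 0.00454) were lower. Of these, Col2a1 was lost without Ubn1-depleted library 1 (0.56, 0.0709), Col14a1 without Ubn2-depleted library 1 (2.09, 0.0994) and without Ubn2-depleted library 2 (2.07, 0.0779), and Col9a2 without Ubn1-depleted library 2 (-0.53, 0.00991) and without Ubn2-depleted library 1 (-0.51, 0.0685).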

How the data were processed

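The authors trimmed reads with Trim Galore, aligned them with STAR to GRCm38 and counted them with featureCounts, per the study's methods and processing notes. Their versions, strand setting and treatment of multi-mapping reads are not given in the sources used here. The deposited unit was raw read counts for 55418 genes in 3 tables, whose control columns were identical and used once. Here, edgeR 4.0.16 (R 4.3.3) quasi-likelihood tests with TMM scaling and filterByExpr were fitted per comparison over 4 libraries, with Benjamini-Hochberg adjustment over all genes tested. CPM were scaled by TMM over all 8 libraries, and exon lengths came from GENCODE M21. Called members were named, except for 1 gene that is not reported here. Of each other matrix list, up to 4 called genes per depletion with the smallest adjusted p were named, and marker genes, Nid1, Nid2 and Hspg2 after their values were seen. Members and lists were chosen with earlier results of these data known. Alternatives were DESeq2 1.42.0, its size factors, no filter, a filter of 10 counts, a joint fit, the replicate block and each library left out. Scripts were tested on simulated data.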

Additional observations from a re-analysis of the deposited data

How the results depend on the processing

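Another setting changed no direction of a called member against control. Of 30 such calls, 13 held in every alternative and with each library left out, and 21 in every alternative that kept all libraries. Members higher after Hira depletion numbered 14, 9 with DESeq2's Wald test and 8 to 10 with 1 library left out, and those lower 3, with 2 to 4. After Ubn1 depletion 0 were higher, 2 by adjusted p alone and 0 to 1 with 1 library left out, and 1 was lower, with 1 to 2. After Ubn2 depletion 7 were higher, with 4 to 8, and 5 lower, 8 by adjusted p alone and 4 to 7 with 1 library left out. Between Hira and Ubn2 depletion 14 were higher after Hira, 9 with DESeq2 and 9 to 16 with 1 library left out, and 3 lower, 5 by adjusted p alone, 1 with at least 10 counts in every library and 2 to 4 with 1 library left out. Between Hira and Ubn1 depletion 13 were higher, with 9 to 11, and 1 lower, 3 by adjusted p alone and 0 to 1 with 1 library left out. Between Ubn2 and Ubn1 depletion 5 were higher, 2 with at least 10 counts and 4 to 7 with 1 library left out, and 3 lower, 6 by adjusted p alone and 3 to 4. The cause of these shifts was not tested, except that the 10-count filter tests fewer genes and leaving out a library fits fewer samples.

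Same-numbered libraries did not deviate together (r between -0.0529 and 0.0664 over 19264 genes), so the numbers were not taken as pairing. With the replicate block 14 members were higher and 4 lower after Hira, 0 and 1 after Ubn1 and 6 and 6 after Ubn2 depletion, 14 and 3 between Hira and Ubn2, 12 and 1 between Hira and Ubn1, and 5 and 3 between Ubn2 and Ubn1 depletion. A group left with 1 library was assumed to vary like the other. Members at a few counts per library were limited by depth, and 11 could not be tested against control. With 2 libraries a group, a two-sided exact permutation test of 1 gene cannot go below p = 0.333.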

Other observations

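Receptors for these chains were measured in the same libraries. Of 17 matrix receptor genes, 4 of 16 tested were called higher after Hira depletion, 3 of 15 after Ubn2 and 1 of 15 after Ubn1, and 0 lower, where 10.8%, 9.59% and 1.53% of all genes tested were called higher. DESeq2 called 3, 3 and 0 of them higher in the same order. Sdc4, syndecan 4, a heparan sulfate co-receptor, rose from 44.3 and 42.7 CPM in control to 77.4 and 71.1 after Hira (log2 0.76 ± 0.09, adjusted p = 1.23e-06) and 86.2 and 86.4 after Ubn2 depletion (log2 0.99 ± 0.08, adjusted p = 4.14e-09). Itgb4, the integrin beta chain that binds epithelial laminin in hemidesmosomes, rose from 15.5 and 14.4 to 27.6 and 29.4 (log2 0.92 ± 0.12, adjusted p = 5.62e-06) and 23.7 and 28.5 CPM (log2 0.81 ± 0.13, adjusted p = 3.13e-05). These calls held in every alternative. Itga1, the alpha chain of a collagen-binding integrin, was scarce in control (0.0487 and 0.251 CPM) and was called higher in all 3 depletions, with 0.757 and 0.712 CPM after Hira, 0.730 and 0.922 after Ubn1 and 1.98 and 1.48 after Ubn2 depletion (log2 fold changes 2.09 at an adjusted p of 0.0154, 2.27 at an adjusted p of 0.029 and 3.32 at an adjusted p of 7.87e-05). The Ubn2 call of Itga1 held in every alternative, the Hira call was lost without control library 1 (1.51, 0.175), without Hira-depleted library 1 (2.04, 0.0933) and without Hira-depleted library 2 (2.14, 0.0569), and the Ubn1 call without control library 1 (1.70, 0.338), without control library 2 (3.94, 0.0669) and without Ubn1-depleted library 2 (2.10, 0.171). DESeq2's Wald test gave Itga1 no adjusted p after Hira or Ubn1 depletion. Ddr1, a collagen-binding receptor kinase, rose from 20.5 and 22.8 to 36.0 and 32.8 CPM after Hira depletion (log2 0.65 ± 0.11, adjusted p = 0.00011). The Ddr1 call was lost without control library 1 (0.58, 0.000484) and without Hira-depleted library 1 (0.58, 0.000305).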
